A study of Mus musculus with 27 samples.

Results

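Untreated smooth muscle (SM) cells were compared with the freshly purified FLK1+ mesoderm from which they were cultured, over all genes of a one-colour mouse expression array. The groups were taken from the sample labels and comprised 3 SM arrays and 2 FLK1+ arrays, 5 of the 27 arrays of the study, which has 13 groups. All cells came from the dnFOS line, an A2lox embryonic stem cell (ESC) line selected as clones that carries a Flag-tagged, DOX-inducible dominant negative FOS at the Hprt locus. dnFOS blocks DNA binding by FOS and JUN proteins when DOX is added. All the arrays compared here, including the HE1 and d1 BC arrays below, were untreated (DOX for 0 days, labelled as having AP-1) and carry the same cassette. ESCs were grown on inactivated embryonic feeder cells and differentiated as embryoid bodies for 3.75 days, and FLK1+ cells were purified from them with magnetic beads. FLK1+ arrays held RNA from these cells at 0 h. SM arrays held RNA from cells sorted by flow cytometry after 48 h of blast culture with VEGF and IL-6, and the labels do not give the markers of that sort. Culture time, culture conditions, sorting method and cell type therefore went together and cannot be told apart. Whether replicates were separate cultures is not given, so p-values measure only the spread between replicate arrays. That spread was estimated over the 27 arrays of all 13 groups, DOX-treated ones included.

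FLK1 is the VEGF receptor encoded by Kdr and marks mesoderm whose cells, as hemangioblasts, can give rise to smooth muscle, endothelium and blood. Primitive streak mesoderm is patterned by T-box and homeobox transcription factors and by NODAL, WNT and FGF signals. Smooth muscle cells are built around a contractile cytoskeleton of smooth muscle actins, myosins and actin-binding proteins, much of it controlled by serum response factor (SRF) with myocardin through the CArG box, and they lay down collagen and elastic matrix. AP-1 dimers of FOS and JUN proteins and TEAD proteins with YAP are transcription factors that respond to growth factor and mechanical signals.

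Levels are given as log2 of the background-subtracted probe signal relative to the 75th percentile of its array, 1 probe per gene, so that 0 is the 75th percentile. Calls needed a change of at least 2-fold and an adjusted p from limma (Benjamini-Hochberg over all genes tested) under 0.05. Of 22617 genes or transcripts tested, 1286 were called higher in SM cells, 5.69% of those tested, and 571 were called lower, 2.52%, together 8.21%, and 5124 had an unadjusted p under 0.05. Among genes with a symbol, 883 rose and 439 fell of 14111. The median log2 fold change of all genes tested was 0.02. Lower calls made up 30.7% of the calls, but 67.4% when arrays were scaled to their median, which moved the median of all genes to -0.70, and 43.8% and 40.8% with normexp background correction and with the authors' processed values. Rises were often from signals near background: 426 of the 1286 genes called higher were above background on no FLK1+ array. Genes that dim in FLK1+ cells entered the test almost only through the SM arrays: of 347 tested genes with a symbol whose FLK1+ mean was -5 or less, 225 were called higher, a direction that the filter fixes. Among genes above background on all 5 arrays the counts were 523 higher and 353 lower. Both FLK1+ arrays and SM replicate 1 shared a slide, and SM replicates 2 and 3 were on other slides. In a fit of the shared slide alone, used as an alternative below, the spread between SM arrays cannot be estimated, because SM replicate 1 stands alone. Within that slide the median log2 difference of genes with a symbol called higher was 2.74, against 2.92 over the 5 arrays. For those called lower it was -2.61 against -2.57. SM replicate 1 took part in these calls, so the values are no independent check. SM replicate 2 stood apart, with 89.6% of probes well above background against 46.9 to 59.4% on the other 4 arrays, and with signals of other cell types described below.

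**Figure D1:**
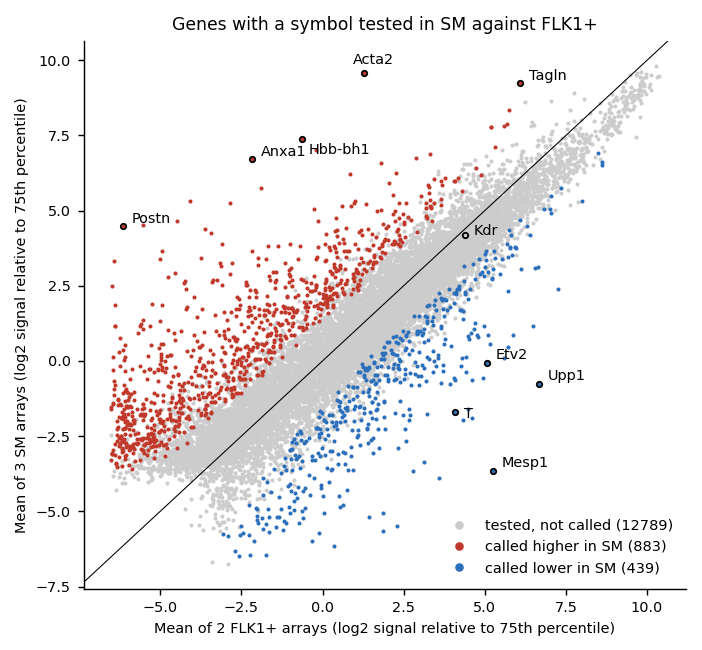
Mean log2 signal relative to the 75th percentile of the array over 3 SM arrays (vertical axis) against 2 FLK1+ arrays (horizontal axis), 1 point per gene with a symbol that was tested. The 883 genes called higher in SM (red) and 439 called lower (blue) lie on either side of the line of equal levels, and many red points have FLK1+ means of -5 or less.

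Set against FLK1+ cells, the contractile genes bear out the SM label in part. Of 25 genes of the smooth muscle contractile list, 21 were tested, 6 were called higher and 0 lower (11 were higher and 0 lower at an unadjusted p under 0.05), and their median log2 fold change was 1.53 against 0.02 over all genes tested. The 6 were Acta2, Filip1l, Actg2, Cald1, Tagln and Myh10. The count of higher calls was 11 with quantile normalization or the authors' processed values and 13 with array weights, against 4 under median scaling and without either FLK1+ array or SM replicate 1. Of the 4 genes not tested, Mylk was above background on 1 SM array and Pln on none. Summed over the list, the signal was 447 and 384 times the 75th percentile on the FLK1+ arrays and 2480, 3220 and 1650 times on the SM arrays. In the unsorted culture it was 1890 and 1180 times after 5 h (FLK1+ 5h) and 3250 and 2270 times after 24 h (d1 BC). A high sum was thus not particular to the SM arrays.

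RefSeq promoter windows of 300 bases (250 before and 50 after a transcription start, GRCm38.p6) were matched for 22 of the 25 contractile genes, with 25 windows. Tagln, Actg2 and Myh11 were not matched, so that the windows cover 4 of the 6 genes called higher. The 5 windows below are shown because they belong to contractile genes called higher and hold a motif of SRF, AP-1 or TEAD. Capitals mark the CArG box, the AP-1 motif TGANTCA or the TEAD motif GGAATG, searched on both strands. The CArG box was searched in its strict form, CC and GG around 6 bases that are each A or T, so sites that differ from it by 1 base are not marked. Sequences run 5' to 3' in the direction of the gene. Acta2 is the window at chr19:34255324-34255623 (minus strand) with a TEAD motif at position -146 relative to the start. Cald1 is chr6:34709194-34709493 (plus strand) with an AP-1 motif at -197, and a window at another Cald1 start, chr6:34598254-34598553 (plus strand), has a TEAD motif at -153. Filip1l is chr16:57548992-57549291 (plus strand) with a CArG box at -62. Myh10 is chr11:68691665-68691964 (plus strand) with a TEAD motif on the other strand at -7.
Acta2: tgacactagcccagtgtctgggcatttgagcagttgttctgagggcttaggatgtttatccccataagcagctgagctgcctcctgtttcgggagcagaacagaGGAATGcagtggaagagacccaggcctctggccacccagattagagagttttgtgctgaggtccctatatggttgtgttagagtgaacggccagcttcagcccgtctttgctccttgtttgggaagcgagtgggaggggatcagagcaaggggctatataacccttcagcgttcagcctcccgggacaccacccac
Cald1: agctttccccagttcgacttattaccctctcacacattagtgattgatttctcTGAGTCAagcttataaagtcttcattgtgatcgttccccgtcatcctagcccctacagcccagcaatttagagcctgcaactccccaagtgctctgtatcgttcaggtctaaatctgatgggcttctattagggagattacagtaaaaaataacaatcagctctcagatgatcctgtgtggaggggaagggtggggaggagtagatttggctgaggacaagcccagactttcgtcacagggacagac
Cald1 at the other start: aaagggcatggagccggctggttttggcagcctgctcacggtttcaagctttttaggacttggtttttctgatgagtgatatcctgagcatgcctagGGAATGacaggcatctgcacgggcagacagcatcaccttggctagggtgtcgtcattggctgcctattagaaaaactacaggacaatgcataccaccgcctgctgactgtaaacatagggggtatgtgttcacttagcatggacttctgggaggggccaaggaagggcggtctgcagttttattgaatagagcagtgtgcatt
Filip1l: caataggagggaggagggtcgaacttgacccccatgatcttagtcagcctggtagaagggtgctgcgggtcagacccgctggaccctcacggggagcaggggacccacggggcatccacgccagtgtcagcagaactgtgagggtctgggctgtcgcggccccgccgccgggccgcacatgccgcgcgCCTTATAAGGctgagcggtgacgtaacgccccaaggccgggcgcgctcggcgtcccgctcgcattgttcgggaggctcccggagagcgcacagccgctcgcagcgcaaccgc
Myh10: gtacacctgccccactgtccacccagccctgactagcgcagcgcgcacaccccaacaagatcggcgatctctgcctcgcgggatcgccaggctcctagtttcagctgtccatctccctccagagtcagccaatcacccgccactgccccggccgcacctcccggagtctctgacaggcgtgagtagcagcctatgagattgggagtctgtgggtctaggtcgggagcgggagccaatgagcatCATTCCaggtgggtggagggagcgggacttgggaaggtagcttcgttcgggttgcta

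A CArG box was found in 4 of the 25 contractile windows (16%) and in 1.63% of 32841 windows of all genes. The 4 belonged to Cnn2, Filip1l, Myl9 and Vcl, of which only Filip1l was called higher. A window at another Filip1l start held no CArG box, AP-1 or TEAD motif. The TEAD motif was found in 8 of the 25 windows (32%) and in 14.7% of all windows. The AP-1 motif was found in 2 of the 25 windows (8%) and in 7.81% of all windows. Among 883 windows of 648 genes called higher in SM cells the shares were 1.7%, 16% and 9.74%, and among 14238 windows of genes tested they were 1.43%, 12.7% and 5.39%. Motifs do not overlap one another in the windows shown, and a match shows the letters only.

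Acta2, the smooth muscle alpha-actin, measured 1.45 and 1.1 on the FLK1+ arrays and 9.79, 9.84 and 9.10 on the SM arrays. The SM arrays lay far above both FLK1+ arrays, by 8.30 on the log2 scale or 316-fold (SE 0.61, adjusted p = 4.39e-07). Filip1l, a filamin-interacting protein, measured -2.95 and -3.39 in FLK1+ and 2.98, 3.33 and 3.42 in SM, a rise of 6.41 (SE 0.58, adjusted p = 2.12e-06), with only 1 of its FLK1+ readings above background. Actg2, the smooth muscle gamma-actin, measured -2.99 and -3.22 in FLK1+ and 3.35, 0.76 and 3.45 in SM. It rose by 5.62 (SE 0.99, adjusted p = 0.00121), and SM replicate 2 was the lowest SM array. Cald1, caldesmon, which binds actin and restrains myosin, measured 0.23 and 1.00 in FLK1+ and 4.40, 3.76 and 3.99 in SM, a rise of 3.43 (SE 0.46, adjusted p = 0.000108). These 4 calls held under all alternatives that tested the gene, and Filip1l was not tested among genes above background in both groups.

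Tagln, the actin-binding protein SM22alpha, was already bright in FLK1+ cells, at 6.23 and 5.93, and measured 9.26, 9.97 and 8.48 in SM. It rose by 3.15 on the log2 scale (SE 0.86, adjusted p = 0.028), with groups that did not overlap. The call was lost under median scaling, with the 5 arrays alone, and without either FLK1+ array, SM replicate 1 or SM replicate 2, and the adjusted p ranged from 0.000557 to 0.174 over the alternatives. Myh10, a nonmuscle myosin heavy chain, measured 3.66 and 3.05 in FLK1+ and 5.26, 4.55 and 5.44 in SM, a rise of 1.73 (adjusted p = 0.0301). This call too was lost under several alternatives, without either FLK1+ array and without SM replicate 1 or 3 among them (adjusted p 0.000497 to 0.344).

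Other smooth muscle genes did not pass the test on these values. Cnn1, calponin, measured 4.19 and 4.04 in FLK1+ and 4.44, 5.27 and 4.77 in SM, a difference of 0.71 (SE 1.09, adjusted p = 0.739) that was -0.012 under median scaling. Myh11, the smooth muscle myosin heavy chain, was above background on 0 of 2 FLK1+ and 3 of 3 SM arrays, at -3.39, -2.74 and -3.13 in SM, at least 2.15-fold higher with an adjusted p of 0.065. Its FLK1+ readings of -4.95 and -5.95 lay below all 3, and Myh11 was called under 2 of 20 alternatives. Csrp1, a LIM protein of smooth muscle, had a difference of 2.35 (SE 0.72, adjusted p = 0.0505) and was called under 12 of 21 alternatives (adjusted p 6.15e-06 to 0.27). Desmin (Des) had a difference of -0.18 (adjusted p = 0.909), with overlapping groups.

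**Figure D2:**
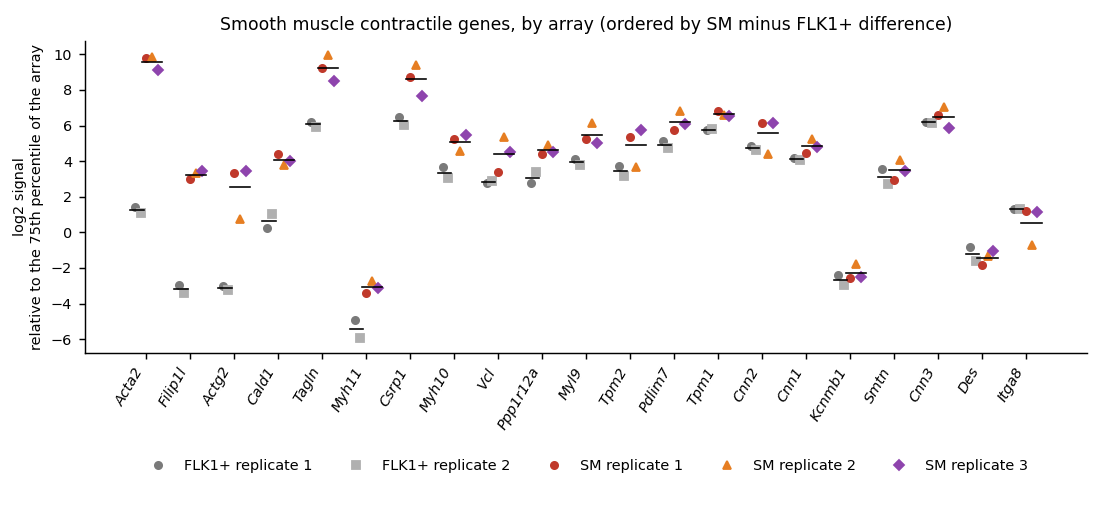
Log2 signal relative to the 75th percentile of the array (vertical axis) of each smooth muscle contractile gene on 2 FLK1+ and 3 SM arrays, 1 point per array, ordered by the difference between groups. Acta2, Filip1l and Actg2 have SM points far above both FLK1+ points, whereas the points of Cnn1 and Des lie close together.

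Of the regulators of smooth muscle, 2 of 22 tested, 9.09% against 5.69% of all genes tested, were called higher and 0 lower. At an unadjusted p under 0.05, 8 were higher and 0 lower. The higher calls ranged from 0 in a fit of the 5 arrays alone to 7 with array weights. Myocd, the SRF coactivator myocardin, measured -1.61 and -2.78 in FLK1+ and -0.88, -0.29 and -0.77 in SM. The difference was 1.55 (SE 0.63, adjusted p = 0.146), and Myocd was called under 2 of 21 alternatives. Srf measured 3.77 and 3.63 in FLK1+ and 2.97, 3.89 and 2.30 in SM, with overlapping groups and a difference of -0.65 (adjusted p = 0.661). The 2 calls were Tcf21, a transcription factor of epicardial and mesenchymal progenitors, and Fhl1, a LIM protein of muscle. Tcf21 was above background on no FLK1+ array and measured -4.03, -2.12 and -3.29 in SM, at least 2.07-fold higher (adjusted p = 0.00159), and its call was lost with normexp correction, with the shared slide or the 5 arrays alone and without FLK1+ replicate 1 (adjusted p 3.39e-05 to 0.421). Fhl1 measured -2.48 and -2.09 in FLK1+ and -0.27, -0.11 and 0.03 in SM, a rise of 2.17 (adjusted p = 0.029; 0.00124 to 0.243 over the alternatives, the call lost without either FLK1+ array and without SM replicate 2 or 3).

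Mural cell genes, which mark the pericytes and smooth muscle that wrap vessels, went both ways, with 2 of 14 called higher and 3 lower. Angpt1, the ligand of the endothelial receptor TIE2, was above background on no FLK1+ array and measured 2.20, 0.68 and 0.64 in SM, at least 41.3-fold higher (adjusted p = 4.02e-06). Pdgfrb, the receptor through which PDGF recruits mural cells, measured 0.53 and 0.21 in FLK1+ and 3.18, 2.66 and 3.83 in SM, a rise of 2.85 (SE 0.72, adjusted p = 0.0175). The Pdgfrb call was lost without either FLK1+ array or SM replicate 3 and under median scaling, in a fit of the 5 arrays alone and with the replicate number, slide or scan day as a fixed block (adjusted p 0.000248 to 0.136). Its relative Pdgfra, a marker of early mesoderm, moved the other way, from 3.41 and 2.76 in FLK1+ to 0.98, 0.52 and 1.28 in SM, and fell by 2.16 (adjusted p = 0.0229; 0.00355 to 0.255 over the alternatives, the call lost without either FLK1+ array or SM replicate 2). The pericyte genes Rgs5, by -2.84 (adjusted p = 0.00347), and Ndufa4l2, by -5.22 (adjusted p = 0.000132), and the surface glycoprotein Thy1, by -2.51 (adjusted p = 0.00933), fell too. The Rgs5 call was lost without FLK1+ replicate 2 (adjusted p 0.000113 to 0.113) and that of Thy1 without either FLK1+ array (0.000361 to 0.114).

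Genes of the primitive streak and early mesoderm fell together. Of 30 tested, 20 were called lower and 0 higher (at an unadjusted p under 0.05, 24 lower and 1 higher), with a median log2 fold change of -3.77, and in 25 of the 30 all SM arrays lay below both FLK1+ arrays, which held for 24.7% of all genes tested. Calls fell to 12 and 15 without FLK1+ replicate 1 or 2. Mesp1, a transcription factor of nascent cardiovascular mesoderm, measured 5.73 and 4.75 in FLK1+ and -2.02, -6.23 and -2.68 in SM, where SM replicate 2 was the lowest and 2 of 3 arrays were above background. It fell by 8.88 (SE 1.06, adjusted p = 3.18e-05). T (brachyury), which is needed for mesoderm formation, measured 4.05 and 4.14 in FLK1+ and 0.03, -3.49 and -1.64 in SM, and fell by 5.80 (SE 1.04, adjusted p = 0.0014). Eomes, a T-box factor upstream of mesoderm and endoderm, measured 5.78 and 5.68 in FLK1+ and 0.56, 0.77 and 0.09 in SM, with SM arrays close to each other, and fell by 5.26 (SE 0.56, adjusted p = 1.08e-05). The homeobox genes Lhx1 and Gsc changed by -4.99 and -7.49, and Foxh1, a NODAL pathway partner of SMAD proteins, by -3.65 (adjusted p = 4.02e-06, 1.16e-05 and 1.28e-05), with Gsc above background on 2 of the 3 SM arrays. Mixl1, a homeobox gene of the streak, measured 1.84 and 1.88 in FLK1+ and was above background on no SM array, at least 84.4-fold lower. Not all mesoderm genes followed: Bmp4 measured 5.95 and 6.62 in FLK1+ and 6.95, 5.97 and 7.30 in SM (adjusted p = 0.647, and -0.26 under median scaling against 0.46), and Hand1 differed by 0.47 (adjusted p = 0.763).

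Pluripotency and epiblast genes, which the mesoderm inherits from the epiblast, had 6 of 24 called lower and 0 higher (at an unadjusted p under 0.05, 7 lower and 2 higher). The lower calls dropped to 2 and 3 without FLK1+ replicate 1 or 2 and to 3 without SM replicate 2. Otx2, an epiblast and anterior homeobox factor, measured 4.87 and 3.67 in FLK1+ and 0.03, -0.95 and 0.39 in SM, and fell by 4.44 (adjusted p = 0.000194). Pou5f1 (OCT4) measured 3.55 and 2.80 in FLK1+ and -0.22, -2.11 and 0.38 in SM, and fell by 3.83 (adjusted p = 0.011; 0.000976 to 0.147 over the alternatives, the call lost without either FLK1+ array and without SM replicate 2). Nanog overlapped between the groups, at -1.65 and -0.65 against -0.26, -1.63 and -0.67 (adjusted p = 0.869).

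About as many matrix genes were called higher as were not called. Of 35 fibrillar collagen and elastic matrix genes tested, 18 were called higher and 0 lower (23 were higher and 0 lower at an unadjusted p under 0.05), with a median log2 fold change of 2.57, and 9 were called without either FLK1+ array. Among the 24 above background in both groups 8 were called higher, with a median of 1.53. Postn, periostin, a matricellular protein of collagen-rich tissue, was above background on no FLK1+ array and measured 5.73, 3.97 and 3.74 in SM, at least 408-fold higher (adjusted p = 1.11e-06). Thbs1, thrombospondin-1, which activates latent TGF-beta, measured -3.66 and -3.57 in FLK1+, 1 of the 2 above background, and 4.06, 5.36 and 3.73 in SM, a rise of 8.0 (SE 0.73, adjusted p = 2.58e-06). Col3a1, a fibrillar collagen of vessel walls, measured -3.03 and -3.81 in FLK1+ and 4.68, 2.39 and 5.70 in SM, a rise of 7.68 (SE 0.99, adjusted p = 7.65e-05) that rests on 1 FLK1+ reading above background and 1 below it. Col1a2 measured 0.97 and 0.70 in FLK1+ and 5.45, 7.02 and 6.22 in SM, a rise of 5.4 (SE 0.57, adjusted p = 8.11e-06). Fibronectin (Fn1), by contrast, measured 9.29 and 9.06 in FLK1+ and 8.41, 8.09 and 7.30 in SM, a difference of -1.24 (adjusted p = 0.247). Elastin (Eln) overlapped between the groups, with a difference of 0.85 (adjusted p = 0.498).

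Several of these matrix genes also mark fibroblasts. Feeder fibroblasts were present in the ESC cultures, before the embryoid bodies and the magnetic purification of FLK1+ cells. Of 13 genes of the fibroblast feeder list tested, 8 were called higher (5 and 4 without FLK1+ replicate 1 or 2) and 2, Thy1 and Pdgfra, lower, and the summed signal of the 15 genes was 23.4 and 17.2 in FLK1+ and 198, 180 and 230 in SM, and 19.1 and 14.8 at FLK1+ 5h. Among the 6 members above background in both groups 1 was called higher and 2 lower, with a median of 0.70. The list shares members with the matrix list, and the part of fibroblasts in these rises was not tested. In bulk RNA a larger share of cells and more RNA per cell cannot be told apart. Basement membrane genes had 4 of 17 called higher and 0 lower (8 and 0 at an unadjusted p under 0.05). Without SM replicate 2 the count was 2, as it was without either FLK1+ array and under median scaling, and it was 10 with quantile normalization or the authors' processed values.

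**Figure D3:**
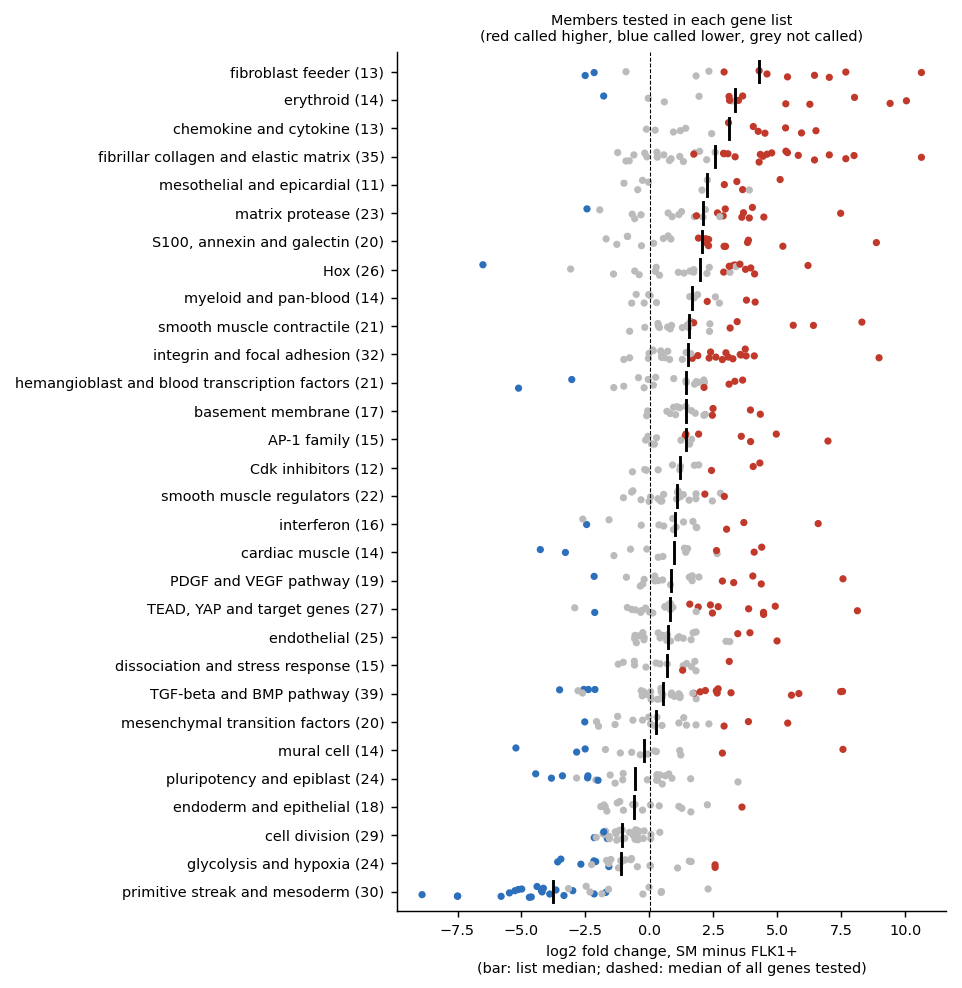
Log2 fold change, SM minus FLK1+ (horizontal axis), of each tested member of 30 gene lists, with the number tested in brackets. Red members were called higher, blue lower and grey neither, the bar is the list median and the dashed line the median of all genes tested (0.02). Primitive streak genes lie furthest to the left, with a median of -3.77, and the fibroblast feeder list furthest to the right, with 4.29 over 13 members but 0.70 over the 6 above background in both groups.

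Integrin and focal adhesion genes, which tie the cytoskeleton to matrix, had 15 of 32 called higher and 0 lower (18 and 0 at an unadjusted p under 0.05), with a median of 1.52. The calls numbered 9 and 8 without FLK1+ replicate 1 or 2 and 6 under median scaling. Of the 29 members above background in both groups 10 were called higher, with a median of 1.29. The caveolae coat genes were among the 15. Cavin2 was above background on no FLK1+ array and measured 3.04, 1.36 and 3.1 in SM, at least 103-fold higher (adjusted p = 4.39e-07). Cavin1 measured 3.34 and 3.27 in FLK1+ and 6.51, 7.61 and 6.55 in SM, a rise of 3.58 (adjusted p = 0.000781), although another of its probes gave 0.76. Itga4, an integrin chain that binds fibronectin and VCAM1, measured -3.99 and -3.25 in FLK1+ and 0.15, -1.60 and -0.17 in SM, a rise of 3.08 (adjusted p = 0.000776; 1.43e-06 to 0.0943 over the alternatives, lost under median scaling and with the 5 arrays alone). The S100, annexin and galectin genes had 11 of 20 called higher and 0 lower (11 and 2 at an unadjusted p under 0.05), and 7 higher without FLK1+ replicate 2, 6 higher and 1 lower under median scaling and 5 higher in a fit of the 5 arrays alone. Of the 17 members of that list above background in both groups 8 were called higher, with a median of 0.84 against 2.06. Anxa1, a calcium-dependent membrane-binding protein, measured -2.27 and -2.07 in FLK1+ and 6.39, 7.31 and 6.42 in SM. It rose by 8.87 or 468-fold (SE 0.61, adjusted p = 3.6e-07), and 2 probes of it gave 7.17 and 8.87.

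Matrix proteases and their inhibitors had 10 of 23 called higher and 1 lower, and 6 higher without either FLK1+ array, under median scaling or among the 18 above background in both groups. Plaur, the urokinase receptor, measured -0.06 and -0.27 in FLK1+ and 2.77, 4.43 and 3.13 in SM, a rise of 3.61 (adjusted p = 0.000418). Mmp9, a gelatinase, fell by 2.44 (adjusted p = 0.0123; 0.000668 to 0.154 over the alternatives, lost without either FLK1+ array). Of 25 chemokine and cytokine genes on the array 13 were tested, and they had 7 called higher and 0 lower (9 and 0 at an unadjusted p under 0.05), 3 and 4 without FLK1+ replicate 1 or 2. With no filter on dim probes 6 of the 25 were called higher and the median was 1.33 against 3.09. The monocyte chemokine Ccl2 measured -3.63 and -2.87 in FLK1+ and 1.72, 3.49 and 2.88 in SM, a rise of 5.94 (adjusted p = 5.6e-05). Csf1, the macrophage growth factor, measured -0.81 and -0.58 in FLK1+ and 3.26, 4.30 and 3.9 in SM, a rise of 4.52 (adjusted p = 8.8e-05).

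Among the AP-1 family, 7 of 15 genes tested were called higher and 0 lower (9 and 0 at an unadjusted p under 0.05), with a median of 1.43. The count was 3 and 4 without FLK1+ replicate 1 or 2, 4 without SM replicate 2 or under median scaling, and 3 of 13 above background in both groups. Fosb measured -2.92 and -3.28 in FLK1+, 1 of the 2 above background, and 3.51, 3.95 and 4.18 in SM, a rise of 6.98 (SE 0.65, adjusted p = 2.88e-06). Fos measured 0.06 and 0.68 in FLK1+ and 4.52, 4.72 and 3.74 in SM, a rise of 3.95 (SE 0.75, adjusted p = 0.00241; 2.8e-05 to 0.0551 over the alternatives, lost without FLK1+ replicate 1). Jun measured 4.24 and 4.11 in FLK1+ and 5.70, 6.78 and 5.80 in SM, a rise of 1.92 (SE 0.52, adjusted p = 0.0258). The Jun call was lost without either FLK1+ array or SM replicate 2, on the shared slide or the 5 arrays alone and under median scaling (adjusted p 0.000157 to 0.399). Jdp2, which represses AP-1 sites as a JUN partner, measured 0.30 and 0.07 in FLK1+ and 3.35, 3.77 and 4.22 in SM, a rise of 3.59 (adjusted p = 1.21e-05). FOS and JUN genes also respond to cell dissociation and sorting. In the dissociation and stress list 2 of 15 genes were called higher, 13.3% against 5.69% of all genes tested, and 0 lower. At an unadjusted p under 0.05 the counts were 6 and 0. The genes called were the heat shock gene Hspa1a, by 3.12 (adjusted p = 0.00216), and Klf6, by 1.30 (adjusted p = 0.0447). With quantile normalization, the authors' processed values, slide as a random block or scan day as a block 5 genes of that list were called, and without any 1 of the 5 arrays 1 was, and Klf6 was not (adjusted p 0.00449 to 0.548 over the alternatives). Egr1 was not called, with a difference of 1.45 (adjusted p = 0.0544). The part of sorting in these values was not tested.

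Of the TEAD, YAP and target gene list, 10 of 27 were called higher and 1 lower, but 4 higher without either FLK1+ array, without SM replicate 2 or under median scaling, and 5 without SM replicate 3. Of the factors, Tead1 measured 1.67 and 2.22 in FLK1+ and 3.65, 4.98 and 4.60 in SM, a rise of 2.46 (SE 0.66, adjusted p = 0.0257). Its call was lost without either FLK1+ array and without SM replicate 2 or 3, among others (adjusted p 0.00123 to 0.289). Tead2, Tead4 and Yap1 were not called, with differences of -0.86, -0.34 and -0.55 (adjusted p = 0.319, 0.768 and 0.578). Of the targets, Ankrd1, a muscle ankyrin repeat protein, measured -2.51 and -3.22 in FLK1+ and 5.17, 6.67 and 3.95 in SM, a rise of 8.13 (SE 1.32, adjusted p = 0.000646). Crim1 and Axl, a growth factor-binding membrane protein and a receptor tyrosine kinase, both rose by 4.46 (adjusted p = 9.13e-06 and 0.000304). Ccn2, connective tissue growth factor, measured 2.03 and 2.08 in FLK1+ and 5.42, 7.14 and 5.23 in SM, a rise of 3.88 (SE 1.11, adjusted p = 0.0365) whose call was lost without any 1 of the 5 arrays (adjusted p 0.000364 to 0.216 over all alternatives). Amot, which holds YAP in the cytoplasm, was the gene called lower, at 7.04 and 7.06 in FLK1+ and 5.01, 5.25 and 4.48 in SM (-2.14, adjusted p = 0.0405; 0.000504 to 0.224 over the alternatives, lost without any 1 of the 5 arrays).

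The TGF-beta and BMP pathway had 11 of 39 genes called higher and 4 lower, 6 higher without either FLK1+ array, 0 to 2 lower without any 1 of the 5 arrays, 6 higher and 6 lower under median scaling, and 5 higher and 2 lower of 33 above background in both groups. Of the ligands, Inhba, the activin A subunit, was above background on no FLK1+ array and measured 1.76, 0.36 and 1.33 in SM, at least 40.6-fold higher (adjusted p = 0.000179). Bmp7 fell from 3.41 and 2.64 to 0.20, -1.40 and -0.25 in SM, by 3.51 (adjusted p = 0.00363; 9.3e-05 to 0.0831 over the alternatives, lost without FLK1+ replicate 1), and Tgfb1 fell by 2.56 (adjusted p = 0.0398; 0.00995 to 0.325, lost without either FLK1+ array or SM replicate 1 or 2). Of the receptors, Tgfbr2 measured 0.03 and 0.19 in FLK1+ and 2.15, 3.19 and 2.83 in SM, a rise of 2.61 (adjusted p = 0.00138). The BMP target Id3 fell by 2.13 (adjusted p = 0.0428; 0.00628 to 0.303, lost without any 1 of the 5 arrays). Among PDGF and VEGF pathway genes 5 of 19 were called higher and 1, Pdgfra, lower, and 3 higher of the 17 above background in both groups. Pdgfc measured -3.02 and -2.28 in FLK1+ and 1.90, 0.83 and 2.43 in SM, a rise of 4.37 (adjusted p = 0.000275), and Egfr, the receptor of EGF, rose by 4.04 (adjusted p = 0.000215). Kdr, which encodes the FLK1 protein used to purify the starting cells, measured 4.68 and 4.11 in FLK1+ and 3.81, 5.33 and 3.42 in SM. The groups overlapped, with SM replicate 2 the highest of the 5 arrays and a difference of -0.21 (SE 0.75, adjusted p = 0.901), which turned positive under several alternatives, and a dimmer probe of Kdr gave -2.40.

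Cell division genes were not called higher in any case, and 3 of 29 were called lower, with a median of -1.07 (at an unadjusted p under 0.05, 12 lower and 0 higher). Top2a, Mcm5 and Ccne1, of DNA unwinding, replication licensing and S phase entry, changed by -2.16, -1.79 and -1.65 (adjusted p = 0.0308, 0.042 and 0.0488), and 0 of the list were called without either FLK1+ array or SM replicate 3 and 1 without SM replicate 1 or 2. With the slide as a fixed or random block 11 and 10 were called lower, with scan day as a block 7 and with array weights 16. Of 12 inhibitors of cyclin-dependent kinases and related genes 3 were called higher and 0 lower (6 and 0 at an unadjusted p under 0.05), 1 was called without FLK1+ replicate 1 or SM replicate 2, and 6 with the authors' processed values. Cdkn2a, the locus of p16 and p19ARF, measured -0.63 and -1.32 in FLK1+ and 2.61, 3.60 and 3.01 in SM, a rise of 4.06 (SE 0.56, adjusted p = 0.000143). Its neighbour Cdkn2b, p15, measured -2.30 and -2.87 in FLK1+ and 2.49, 2.41 and 0.29 in SM, a rise of 4.32 (SE 1.1, adjusted p = 0.0184; 8.5e-08 to 0.144 over the alternatives, lost without either FLK1+ array and without SM replicate 1 or 2). Glycolysis and hypoxia genes had 6 of 24 called lower and 2 higher, with 1 and 4 lower without FLK1+ replicate 1 or 2. The lower calls numbered 3 with quantile normalization, 12 and 13 with slide as a fixed or random block, 10 with scan day as a block and 15 with array weights. The glycolytic enzyme gene Pfkl measured 5.11 and 4.21 in FLK1+ and 0.87, 0.33 and 2.02 in SM, and fell by 3.58 (adjusted p = 0.000814). The lactate transporter Slc16a3 fell by 3.46 (adjusted p = 0.00944; 6.82e-05 to 0.157), while the glucose transporter Slc2a1 rose by 2.57 (adjusted p = 0.0127; 0.000136 to 0.136), both calls lost without FLK1+ replicate 1 and that of Slc2a1 also without FLK1+ replicate 2.

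Hox genes, which record position along the body axis, had 9 of 26 tested called higher and 1 lower, with 21 of the 39 on the array above background on no FLK1+ array. Calls fell to 2 with normexp correction, 1 without FLK1+ replicate 1, 6 without FLK1+ replicate 2 and 1 of 7 above background in both groups, and were 15 with array weights. Hoxb4 measured -1.91 and -1.73 in FLK1+ and 1.57, 1.87 and 1.12 in SM, a rise of 3.34 (SE 0.51, adjusted p = 0.000395). Hoxb1, the gene called lower, measured 0.32 and 0.40 in FLK1+ and was above background on no SM array, at least 29.9-fold lower (adjusted p = 1.84e-05). Mesenchymal transition factors were split, with 3 of 20 called higher and 1 lower. The repressor Snai2 measured -2.69 and -1.30 in FLK1+ and 4.02, 2.13 and 4.08 in SM, a rise of 5.41 (adjusted p = 0.000619), whereas its paralog Snai1 measured 4.60 and 3.87 in FLK1+ and 1.59, 1.81 and 1.71 in SM, and fell by 2.53 (adjusted p = 0.0157; 0.000603 to 0.208 over the alternatives, lost without either FLK1+ array).

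Markers of other cell types that FLK1+ mesoderm can form, or that the sort could hold, were also measured on the SM arrays, and differed among them. The summed signal of 28 endothelial genes was 107.5, 709 and 95.1 on SM replicates 1, 2 and 3, against 161 and 129 on the FLK1+ arrays and 1070 and 1660 on the HE1 arrays. SM replicate 2 thus stood above the other 4 arrays. Cdh5, VE-cadherin, measured -1.12, 4.34 and -0.41 in SM against -2.05 and -2.06 in FLK1+ (adjusted p = 0.21). Of 25 endothelial genes tested 3 were called higher and 0 lower (6 and 0 at an unadjusted p under 0.05), the stem and endothelial surface protein Cd34 by 4.99 and the endothelial genes Tie1 and Ecscr by 3.93 and 3.45 (adjusted p = 0.0052, 0.0139 and 0.0267), with Tie1 above background on 1 of the 2 FLK1+ arrays. Without SM replicate 2 only 1 of the 25 was called and the list median was -0.27 against 0.71, and without either FLK1+ array 0 were called. Of the SM arrays, replicate 2 also had the highest cardiac sum, at 262 against 89.6 and 92.9 on the others. The FLK1+ arrays had 49.8 and 40.5. The sum was 238 and 171 at FLK1+ 5h and 280 and 308 in d1 BC, so SM replicate 2 lay within the range of the unsorted culture. Of 14 cardiac genes tested 3 were called higher and 2 lower. Myh7, a cardiac and slow muscle myosin, measured -1.94 and -3.13 in FLK1+ and 1.22, 2.97 and 1.37 in SM (a rise of 4.39, adjusted p = 0.000808), and the atrial light chain Myl7 fell by 4.26 (adjusted p = 0.000129).

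Erythroid genes ran the other way among the SM arrays. Their summed signal was 582, 84.4 and 427 on SM replicates 1, 2 and 3, against 19.3 and 23.9 in FLK1+, so that SM replicate 2 had the lowest of the 3. Of 14 erythroid genes 9 were called higher and 1 lower, 11 higher and 0 lower without SM replicate 2, and 5 higher without either FLK1+ array. Among the 7 above background in both groups 3 were higher and 1 lower. The embryonic globin Hbb-bh1 measured -0.27 and -1.03 in FLK1+ and 8.46, 5.81 and 7.83 in SM, a rise of 8.02 (SE 0.81, adjusted p = 5.74e-06). Another embryonic globin, Hba-x, was above background on no FLK1+ array and measured 5.65, 1.6 and 6.29 in SM, at least 417-fold higher (adjusted p = 0.000928). Globin genes are close copies of one another, and which copy a probe read is uncertain. Of 21 hemangioblast and blood transcription factors tested 4 were called higher (Gata1, Klf1, Hoxb4 and Meis1) and 2 lower (Etv2 and Lmo2), and 2 higher without either FLK1+ array or SM replicate 1 and 1 under median scaling. The erythroid factor Gata1 measured 1.75, -0.28 and 1.97 in SM against -1.70 and -2.24 in FLK1+ (a rise of 3.11, adjusted p = 0.0162; 5.87e-05 to 0.144, lost without either FLK1+ array or SM replicate 1 or 3). The Klf1 call was lost under 10 of 20 alternatives (adjusted p = 0.021; 3.65e-05 to 0.166), without either FLK1+ array, without SM replicate 1 or 3 and with quantile normalization or the authors' values among them. The hemangioblast regulator Etv2, an ETS factor that initiates the blood and endothelial programme, measured 5.41 and 4.71 in FLK1+ and -0.72, 1.65 and -1.1 in SM, and fell by 5.12 (SE 0.73, adjusted p = 0.000185). Lmo2, a LIM-only bridging factor of the blood programme, measured 3.47 and 4.06 in FLK1+ and 0.25, 1.84 and 0.11 in SM, and fell by 3.03 (adjusted p = 0.0135; 3.44e-05 to 0.134, lost without either FLK1+ array or SM replicate 3). Tal1 and Runx1, blood transcription factors, were not called (adjusted p = 0.818 and 0.385). In the myeloid and pan-blood list 3 of 14 were called higher and 0 lower (6 and 0 at an unadjusted p under 0.05), and 1 was called with normexp correction or without either FLK1+ array. Above background in both groups 0 of 8 were called by limma, with a median of 0.00028 against 1.66. Mesothelial and epicardial genes had 4 of 11 called higher and 0 lower (7 and 0 at an unadjusted p under 0.05), but 1 with normexp correction, without FLK1+ replicate 1 or among the 6 above background in both groups. Wt1, an epicardial and mesothelial transcription factor, measured -2.60 and -2.22 in FLK1+ and 1.30, 1.01 and 0.70 in SM (a rise of 3.42, adjusted p = 0.00322; 0.000162 to 0.0601, lost under median scaling and without FLK1+ replicate 1). The summed mesothelial signal was 61.3, 27 and 67.5 in SM and 18.9 and 14.6 in FLK1+. It was 141 and 78.8 at FLK1+ 5h and 75 and 78.1 in d1 BC, above every SM array. The endoderm and epithelial list had a higher summed signal on every SM array, 702, 522 and 517 against 300 and 221 in FLK1+. Its sum was 995 and 639 at FLK1+ 5h and 1090 and 849 in d1 BC. The median log2 fold change of the list, SM against FLK1+, was -0.61. Of its 18 genes tested 1 was called higher, 5.56% against 5.69% of all genes tested, and 0 lower. At an unadjusted p under 0.05 the counts were 3 and 1. The gene called was Dab2, an endocytic adaptor, at -1.28 and -1.01 in FLK1+ and 2.87, 2.09 and 2.46 in SM (a rise of 3.62, adjusted p = 0.00085). The part of other cell types in the SM values was not tested.

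**Figure D4:**
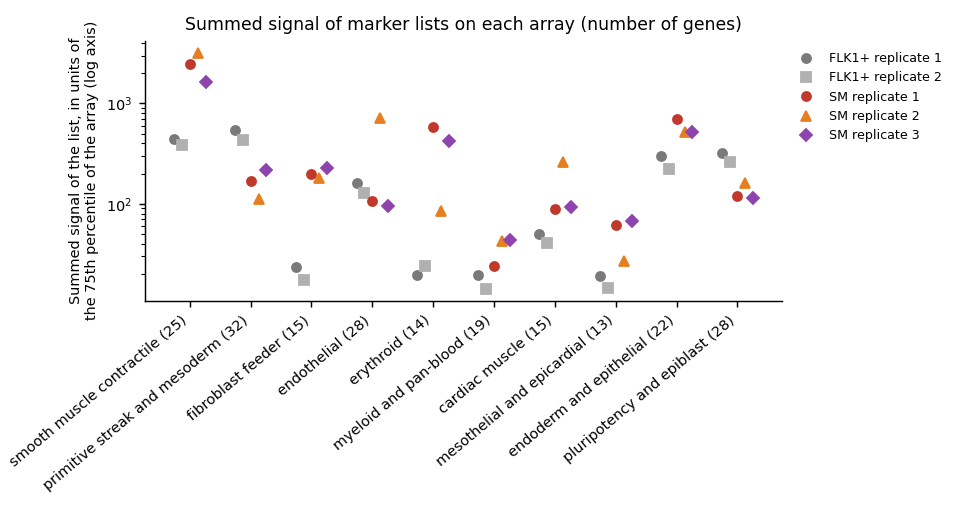
Summed signal of each marker list on the 2 FLK1+ and 3 SM arrays, in units of the 75th percentile of the array (log axis), with the number of genes in brackets and 1 point per array. SM replicate 2 has the highest endothelial signal (709) and the lowest erythroid signal of the SM arrays (84.4).

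Beyond the lists, the genes with a symbol that rose most while above background on all 5 arrays included Cryab, a small heat shock protein of muscle, at -0.05 and -0.36 in FLK1+ and 6.51, 7.72 and 6.86 in SM (7.23, adjusted p = 4.12e-06). Crispld2, a secreted matrix-associated protein, and the serine protease Prss23 rose by 6.04 and 5.51 (adjusted p = 0.00187 and 0.000341). Among genes above background on no FLK1+ array, Ccn4, a WNT-induced matricellular protein, measured 5.11, 4.09 and 4.82 in SM, at least 458-fold higher (adjusted p = 3.03e-06). Emp1, an epithelial membrane protein, was at least 233-fold higher, and Vcam1, a cell adhesion molecule, at least 183-fold higher. Upp1, uridine phosphorylase, fell most among genes measured on all 5 arrays, from 7.13 and 6.22 to -0.94, -0.12 and -1.20 (-7.43, adjusted p = 4.02e-06). Phlda2, an imprinted growth regulator, fell by 6.49, and Amhr2, a TGF-beta family receptor, fell by 6.28 (adjusted p = 0.000322 and 9.56e-07). Cyp26a1, which degrades retinoic acid, measured 6.59 and 6.38 in FLK1+ and 0.70, 1.49 and 1.32 in SM (-5.31, adjusted p = 7.01e-05), and Alpl, alkaline phosphatase, fell by 5.21 (adjusted p = 4.31e-06). These calls held under all alternatives that tested the gene. Those above background on no FLK1+ array were not tested among genes above background in both groups.

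Whether a level was particular to SM cells was asked against 2 other untreated populations. HE1 is early hemogenic endothelium, sorted from the same culture stage as KIT+TIE2+CD41- cells, and d1 BC is the complete blast culture after 24 h, an unsorted mixture that, per the study, itself holds mainly SM cells beside hemogenic endothelium. In SM against HE1 80 of 23407 genes were called higher, 0.342%, and 53 lower, 0.226%, together 0.568%. With the replicate number as a block 0 were called in either direction by limma (1936 at an unadjusted p under 0.05), so that the genes named below were not called in that fit. The contractile list had 0 of 22 called in either direction by limma (9 higher and 1 lower at an unadjusted p under 0.05), with a median difference of 1.16. Of 28 endothelial genes 6 were called lower and 0 higher (24 lower and 0 higher at an unadjusted p under 0.05). Genes named from here on in this comparison were chosen after their values were seen. The endothelial coreceptor Eng measured 3.63 and 3.99 in HE1 and -0.79, 0.48 and -0.31 in SM (-4.02, adjusted p = 0.0201), and von Willebrand factor (Vwf) 2.96 and 2.78 in HE1 and -2.70, -0.07 and -2.38 in SM (-4.59, adjusted p = 0.0201). Both were highest among SM arrays on SM replicate 2, and without that array 250 genes were called higher and 306 lower. Without HE1 replicate 1 the counts were 95 and 7. Without HE1 replicate 2, SM replicate 1 or SM replicate 3, 0 were called in either direction by limma (1510, 1473 and 1595 at an unadjusted p under 0.05). Kit, whose protein was a marker of the HE1 sort, was 4.04 lower. Genes called higher in SM included Tgfb2 at 4.89, 5.34 and 5.54 against 3.09 and 2.10 in HE1 (2.66, adjusted p = 0.042), and Tead3 (2.46, adjusted p = 0.0381).

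In SM against d1 BC 49 of 23105 genes were called higher, 0.212%, and 7 lower, 0.0303%, together 0.242%. With the replicate number as a block 14 were called higher, 13 of them among the 49, and 2 lower, and under median scaling 4 higher and 3 lower. The contractile list again had 0 of 21 called by limma (1 higher and 1 lower at an unadjusted p under 0.05), with a median of -0.39. All SM arrays lay below both d1 BC arrays for 8 of the 21 and above them for 4, while 9.95% and 13.5% of all genes tested did so. Chosen after their values were seen, Col1a2 measured 1.71 and 2.98 in d1 BC and 5.45, 7.02 and 6.22 in SM (3.89, SE 0.57, adjusted p = 0.00662). Cavin2 and Fosb also were higher in SM than in d1 BC, by 4.14 and 3.25 (adjusted p = 0.0131 and 0.0389), and Myl7 was lower by 3.87 (adjusted p = 0.00877). Interferon genes had 4 of 16 called higher and 0 lower against d1 BC, 0 of 17 called against HE1 by limma (2 higher and 1 lower at an unadjusted p under 0.05) and, against FLK1+, 3 of 16 called higher and 1 lower but 0 and 1 of the 12 above background in both groups. Against d1 BC, Ifit3 was at -4.79 and -3.70 in d1 BC and 0.19, -0.64 and 0.86 in SM (4.38, adjusted p = 0.0338). Without SM replicate 1 or 3 the counts over all genes were 16 and 10 higher and 1 and 2 lower, and without d1 BC replicate 1 or 2 they were 5 and 9 higher and 4 and 4 lower. The direct test of Acta2 gave 2.20 against HE1 (adjusted p = 0.107) and 0.48 against d1 BC (adjusted p = 0.998).

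Across the 7 untreated populations the mean Acta2 level was 9.58 in SM, 9.10 in d1 BC, 7.38 in HE1, 5.87 in HP, 5.11 in FLK1+ 5h, 4.28 in HE2 and 1.27 in FLK1+, where FLK1+ 5h is the culture after 5 h, HE2 late hemogenic endothelium and HP floating progenitors. SM and d1 BC lay within 0.48 of each other with SDs of 0.41 and 0.25. Tagln had a different order, with its highest means 9.41 in d1 BC, 9.23 in SM and 8.83 in FLK1+ 5h, with SDs of 0.63, 0.74 and 0.57 that exceed the gaps. Ankrd1 and Thbs1 measured 4.15 and 2.72 at FLK1+ 5h against -2.86 and -3.61 in FLK1+. Col3a1 instead was at -4.09 at FLK1+ 5h, -0.21 in d1 BC and 4.26 in SM (SM against d1 BC 4.46, adjusted p = 0.085). T and Mesp1 measured 2.38 and 1.26 at FLK1+ 5h and -2.32 and -4.41 in d1 BC. Etv2 was 2.25 in HE1 and -0.05 in SM (SM against HE1 -2.30, adjusted p = 0.177).

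**Figure D5:**
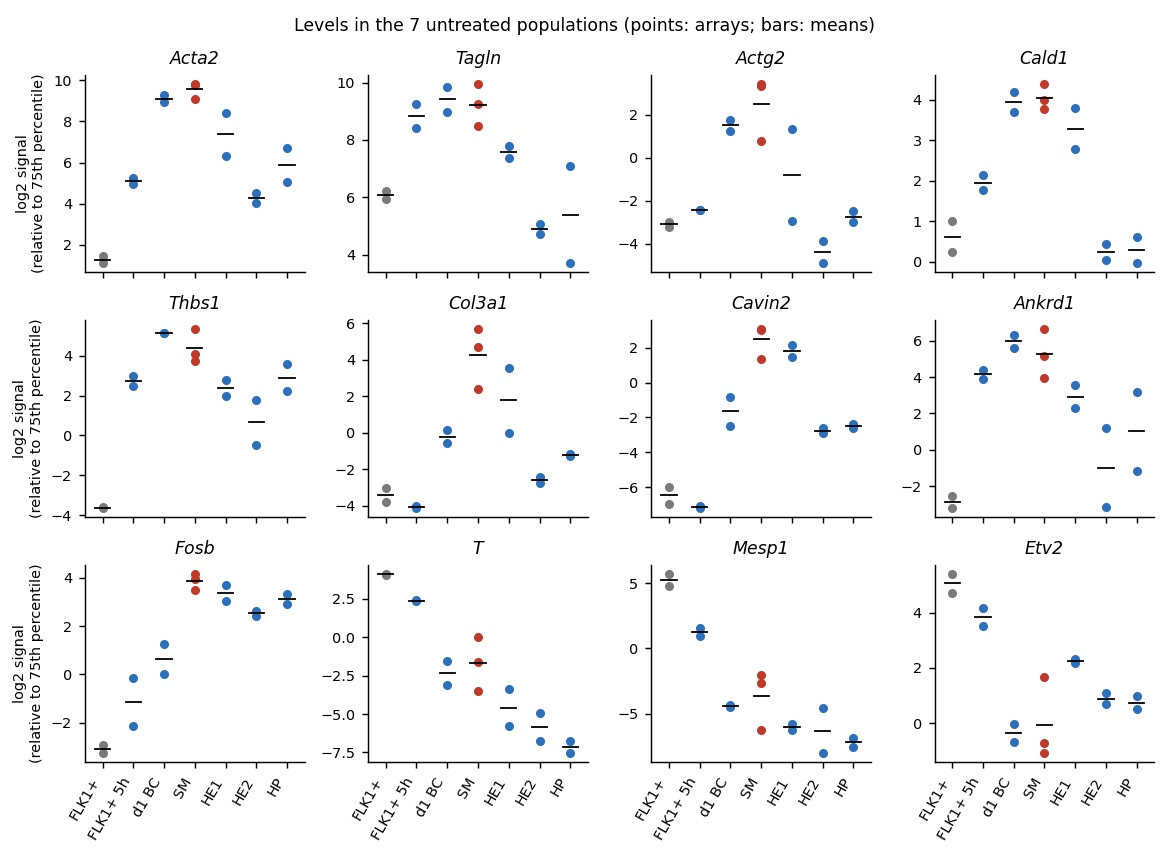
Log2 signal relative to the 75th percentile of the array (vertical axes) of 12 genes in the 7 untreated populations (horizontal axis), with 1 point per array, black bars for means, SM in red, FLK1+ in grey and the others in blue. Acta2 is lowest in FLK1+ (mean 1.27) and near its SM level in d1 BC, and T and Mesp1 have their highest means in FLK1+.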

How the data were processed

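RNA of 27 samples was labelled with Cy3 and hybridised to Agilent 8x60K mouse arrays. The authors' deposited spot signals are an intensity, background-subtracted by Feature Extraction (10.7.3.1 per the file headers, 10.7.1.1 in the submitters' processing notes), not scaled between arrays. The authors also deposited log2 values normalized between arrays, used as an alternative. Here outlier spots were removed (832 missing probe values remained), spots of a probe averaged, log2 taken and the 75th percentile of each array subtracted. RefSeq accessions (GRCm38.p6) named 26582 of 55681 probes, and the probe with the highest mean over 27 arrays stood for each of 37208 genes or transcripts. Genes well above background on all arrays of either group were tested with limma 3.58.1 (lmFit, eBayes; R 4.3.3) over 13 group means and 27 arrays, with 14 residual and 4.49 prior degrees of freedom. "At least" folds set the mean of the brighter group against the lowest well-above-background signal of each dark array, or the probe's own signal if higher. The dark arrays are FLK1+ for rises and SM for falls. Leaving out an FLK1+ array assumes that the other varies like the other groups. The number of arrays limits precision. No pair of arrays was identical. Tables and figures used data.table (version 1.17.8), Python 3.11.15, pandas 2.3.3, numpy 2.4.6 and matplotlib 3.10.9, and the fit was tested on simulated data. Named genes were list members (up to 4 per direction by p, and defining genes) and the genes with the largest changes or bounds. The comparison and lists were chosen with earlier results of these data known, and alternatives of list counts were added after the data were seen. Values of 2 list members are not reported here.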

Additional observations from a re-analysis of the deposited data

How the results depend on the processing

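With 3 SM and 2 FLK1+ arrays, calls of dim genes and of genes near the threshold depend on single arrays and on scaling, and arrays of very low signal limit folds to bounds. Of 175 genes followed, 154 were called, and 0 called genes changed sign. Of the 154, 76 kept their side of the adjusted p threshold under all alternatives that tested them. Genes not above background in both groups were not tested in the alternative that requires it. Alternatives of the fold threshold were not counted. Signs that turned belonged to genes that were not called. The difference of Kdr became 0.12 with quantile normalization, 0.23 with the authors' values, 0.18 with the replicate block or without SM replicate 3, and 0.08 without FLK1+ replicate 1, with a range of -0.78 to 0.18 when 1 array was left out. That of Nanog became -0.052 with quantile normalization, -0.43 with median scaling, -0.16 with the authors' values, -0.21 without FLK1+ replicate 1 and -0.0045 without SM replicate 1, with a range of -0.21 to 0.79 when 1 array was left out. Median scaling gave -0.012 for Cnn1 and -0.26 for Bmp4.

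In SM against FLK1+, higher and lower calls were 621 and 231 at an adjusted p under 0.01, 492 and 1018 with median scaling, 523 and 353 above background in both groups, 1955 and 1501 with slide as a random block, 383 and 123 in a fit of the 5 arrays alone, and 3320 and 3773 with array weights. Higher calls were 733 with normexp, and lower calls 1002 with the authors' values, 1363 with slide and 1124 with scan day as a fixed block. Leaving out 1 array gave 426 to 1251 higher and 202 to 480 lower calls, 426 and 202 of them without FLK1+ replicate 1. The slide correlation was 0.358. Calls are not counted for the shared slide alone, where SM replicate 1 is the only SM array. The labels do not say that replicate numbers pair these samples. Deviations of same-numbered arrays correlated at 0.05 and 0.07 for FLK1+ and SM, at 0.24 and 0.50 for HE1 and SM and at -0.21 and -0.19 for d1 BC and SM, and in SM against FLK1+ with the replicate block 1038 genes were called higher and 416 lower.

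In SM against HE1, calls were 0 and 0 at an adjusted p under 0.01, with the replicate block and in a fit of both groups alone (2018 genes had an unadjusted p under 0.05 in the limma fit over 27 arrays). They were 242 and 230 with quantile normalization, 410 and 337 with the authors' values, 36 and 25 with no filter on dim probes, 18 and 18 above background in both groups, 408 and 217 with slide as a random block, 188 and 125 with a mean-variance trend and 810 and 674 with array weights. Higher calls were 31 with median scaling and 125 with scan day as a block. Leaving out 1 array gave 0 to 250 higher and 0 to 306 lower calls.

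In SM against d1 BC, calls were 6 and 1 at an adjusted p under 0.01 or above background in both groups, 4 and 3 with median scaling, 14 and 2 with the replicate block, 138 and 18 with slide as a random block, 85 and 12 with scan day as a block, 0 and 0 in a fit of both groups alone (1357 at an unadjusted p under 0.05 over 27 arrays) and 708 and 313 with array weights. Higher calls were 27 with normexp, and lower calls 22 with quantile normalization, 48 with the authors' values and 3 with slide as a fixed block. Leaving out 1 array gave 5 to 59 higher and 1 to 9 lower calls. The cause of these differences was not tested.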
